A study of Mus musculus with 34 samples.

Results

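Dble::R6/2 mice carry both an R6/2 transgene and a single functional copy of Hdac4, and the comparison of their cortex with WT cortex asks what remained abnormal in R6/2 mice after loss of an Hdac4 allele. All arrays with the double-mutant title and all arrays with the WT title were taken, 17 of 34 in all. Expression was measured on Affymetrix whole-genome arrays with 1 array per mouse, and each value is a log2 expression level of a probe set, so that a difference of 1 is a doubling. The groups were Dble::R6/2 (n = 9) and WT (n = 8), and R6/2 (n = 9) and Hdac4HET (n = 8) serve here only to place the values of the double mutants. All mice were 15 weeks old, of a CBA X C57Bl/6 background, and of both sexes by their labels, 5 female and 4 male for Dble::R6/2 and 4 and 4 for WT. R6/2 mice are transgenic for a fragment of human huntingtin, exon 1 with an expanded repeat under the huntingtin promoter, and still have their own Htt gene. Hdac4HET mice are heterozygous for a knock-out allele made in another mouse strain, and the heterozygote was used because the null does not survive. The allele was then bred onto the same background as R6/2, though a stretch of DNA of the first strain around it is inherited with it. Dble::R6/2 therefore models a partial loss of HDAC4 in every cell and from conception.

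In Huntington's disease, a polyglutamine expansion makes huntingtin aggregate, and transcription in cortical and striatal neurons is disturbed, with loss of neuropeptides, receptors, channels and activity-regulated genes. HDAC4 is a class IIa histone deacetylase with little deacetylase activity of its own. It binds MEF2 transcription factors and represses their targets in muscle, and it moves between nucleus and cytoplasm with its phosphorylation.

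Array medians lay between 5.44 and 5.52, and the lowest correlation between arrays of one genotype was 0.982 in Dble::R6/2 and 0.986 in WT. It was 0.986 in Hdac4HET and 0.973 in R6/2, there between replicates 2 and 5. Epidermal transcripts had a mean of 1.31 relative to WT in R6/2 replicate 2. In the other R6/2 arrays that mean lay between 0.00 and 0.18. The array was kept. The X-inactivation transcript Xist went against the sex label in 4 Dble::R6/2 and 5 WT arrays, and was high in 3 of the 9 Dble::R6/2 and 5 of the 8 WT arrays. The pituitary hormone gene Prl was above a log2 value of 8 in 0 of the 9 Dble::R6/2 arrays and in 3 of the 8 WT arrays, replicates 2, 6 and 7. The overall count is therefore given also without those 3 arrays and with sex read from Xist, and the main changes that leaving out the 3 arrays made to genes and lists named below stand beside them. Markers of cortical neurons were present. Over the 9 measured, the group means lay between 7.49 and 12.96 in Dble::R6/2 and between 7.61 and 13.45 in WT, with Slc17a7, the vesicular glutamate transporter of cortical projection neurons, at 9.93 in Dble::R6/2 and 10.21 in WT. The number of arrays limits the precision of every value, and p-values set each group difference against the spread between mice.

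Hdac4, the targeted gene, had a reduced signal in Dble::R6/2 cortex, with all 3 probe sets below WT. The brightest read 7.32, 7.54 and 7.80 in Dble::R6/2 cortex (lowest, median and highest mouse), against 7.81, 8.08 and 8.20 in WT. Every double mutant lay below every WT mouse, and the log2 difference of -0.48 ± 0.07 (SE, limma adjusted p = 2.48e-05) put the mean at 71.7% of WT. The probe set next in brightness fell by 0.60 (adjusted p = 2.43e-05), and 1 double mutant reached the WT range. The dimmest fell by 0.47 (adjusted p = 0.000488), with 2 double mutants in the WT range, and its difference from R6/2 was -0.08. The sources used here do not place these probe sets inside or outside the deletion, and a signal from outside would not test the genotype. The same mice carried a signal of Prm1, a spermatid protamine gene. Its dimmest probe set read 4.10, 4.44 and 5.05 in Dble::R6/2, against 2.29, 2.52 and 2.58 in WT, a difference of 2.07 ± 0.11 (SE, adjusted p = 2.67e-10) with no overlap. Its mean in R6/2 was 2.54, and Hdac4HET exceeded WT by 0.99. A second Prm1 probe set was 1.83 higher and the brightest 0.22 higher. Of 10 measured spermatid transcripts, Prm1 alone was called, and the others differed by between -0.14 and 0.00.

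**Figure D1:**
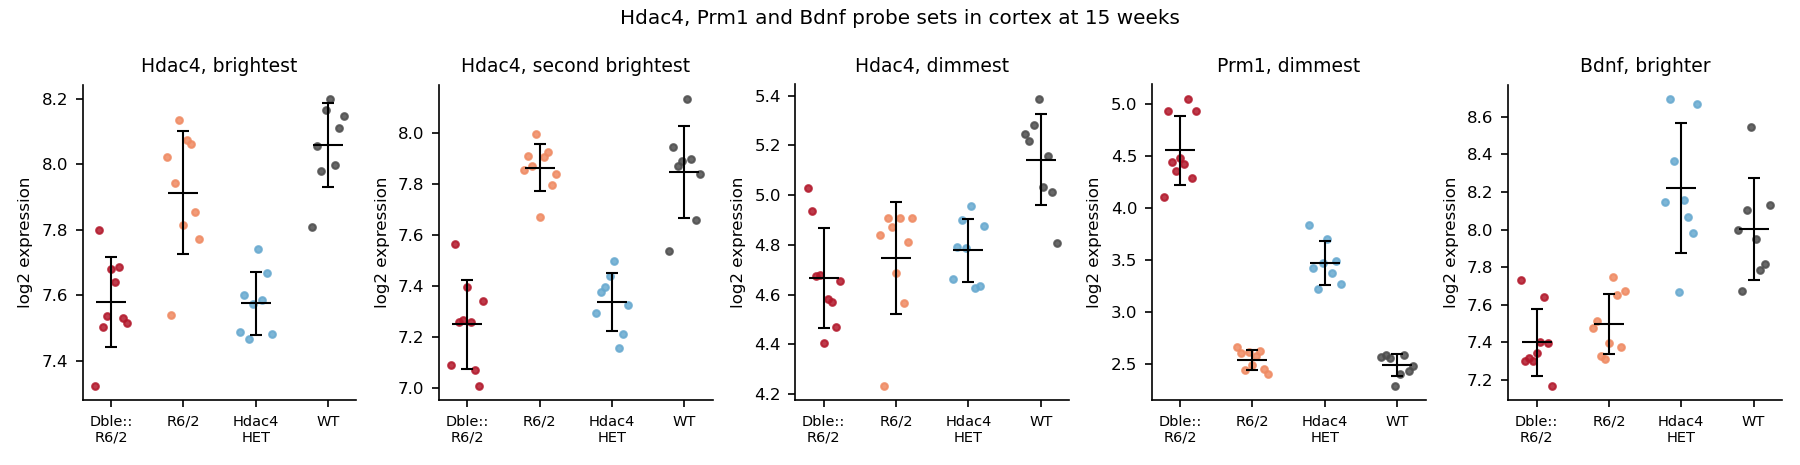
Log2 expression of Hdac4 (3 probe sets), Prm1 (the dimmest) and Bdnf (the brighter) in each mouse of the 4 genotypes (1 point per mouse, bar and whiskers for mean and SD). Hdac4 lay lower in Dble::R6/2 than in WT on all 3 probe sets, Prm1 read 4.10 or more in every Dble::R6/2 mouse and 2.58 or less in every WT mouse, and Bdnf lay lower in Dble::R6/2 than in WT.

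The double mutants differed widely from WT. Of 45037 probe sets, 13750 (30.5%) passed the adjusted p threshold of 0.05, with 7579 (16.8%) higher and 6171 (13.7%) lower. With a fold change over 30% asked as well, 6897 (15.3%) remained, 3449 higher and 3448 lower. Taking for each of 18193 genes its brightest probe set, 6620 (36.4%) were called, 3917 (21.5%) higher and 2703 (14.9%) lower, and these shares are the background of the gene counts below. The median difference over all genes was 0.01 and the median SE 0.08. Large changes leaned the other way, since 78 genes were at least 2-fold higher (0.429%) and 162 at least 2-fold lower (0.89%). In 1026 genes (5.64%) every Dble::R6/2 mouse lay above every WT mouse, and in 871 (4.79%) every one lay below. Leaving out WT replicates 2, 6 and 7 gave 9815 calls, 5421 of them higher, and taking sex from Xist as a covariate gave 12362.

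The largest rises included several transcription factors of embryonic patterning. Pou4f1, which specifies sensory neurons, read 6.93, 7.70 and 8.34 in Dble::R6/2, against 3.48, 3.93 and 4.44 in WT, a difference of 3.59 ± 0.18 (SE, adjusted p = 5.96e-11). The gap between the groups was wider than the spread within either. Onecut2, a cut homeodomain factor, lay between 7.86 and 8.38 in Dble::R6/2 and between 4.85 and 5.72 in WT (difference 2.82 ± 0.11, adjusted p = 3.6e-12). Twist1, a helix-loop-helix factor of mesoderm, was 2.59 ± 0.20 higher, and Shox2, a homeodomain factor of limb and thalamus, 2.22 ± 0.19 higher, again without overlap. These 4 belong to a list of 36 measured patterning factors that are low in cortex, of which 8 were called higher and 0 lower. The share called higher was near the 21.5% of all genes, so the list as a whole did not stand out. The other called members, Gata2 (0.53), Onecut1 (0.37), Irx5 (0.35) and Nkx2-2 (0.29), moved far less, Irx5 (adjusted p = 0.0503) and Nkx2-2 (adjusted p = 0.228) did not pass without the 3 WT arrays high in Prl, Nkx2-2 also not without any 1 of WT replicates 2, 3, 4, 6 and 7 or Dble::R6/2 replicates 8 and 9, and the list's median of 0.06 was near that of all genes. Of 33 measured Hox genes, 2 were called, Hoxb5 at 1.43 and Hoxc6 at 0.23, and Hoxc6 lost its call without any 1 of WT replicates 2, 3, 5, 6 and 7 or Dble::R6/2 replicates 1 and 8. Hoxc6 also lost its call without the 3 WT arrays high in Prl.

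Regulators of the cell cycle were the next group of large rises. Cks2 and Cks1b, small subunits that bind cyclin-dependent kinases, rose by 1.98 ± 0.14 and 1.80 ± 0.12, and Tpx2, a spindle protein that activates Aurora A, by 1.97 ± 0.12. Every Dble::R6/2 mouse lay above every WT mouse for all 3. Of 41 measured cell cycle genes, 13 were higher and 3 lower, and those higher included the replication licensing subunits Mcm7 (0.97), Mcm6 (0.75) and Mcm5 (0.63) and the cyclin-dependent kinase inhibitors Cdkn1a (0.95) and Cdkn1b (0.47). The proliferation marker Mki67 (-0.10, adjusted p = 0.176) and the mitotic kinase Cdk1 (-0.10, adjusted p = 0.431) did not pass, and Ccnd1 (-0.62), Ccnb2 (-0.36) and Plk1 (-0.28) were lower. Among the remaining large rises, Rgs13, a regulator of G protein signalling, rose by 2.25, Plin4, a lipid droplet protein, by 1.90, Tal1, a helix-loop-helix factor, by 1.75, Sfmbt2, a polycomb-group protein, by 1.74, and the transcripts Gm2102 and G530011O06Rik by 2.96 and 2.06.

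**Figure D2:**
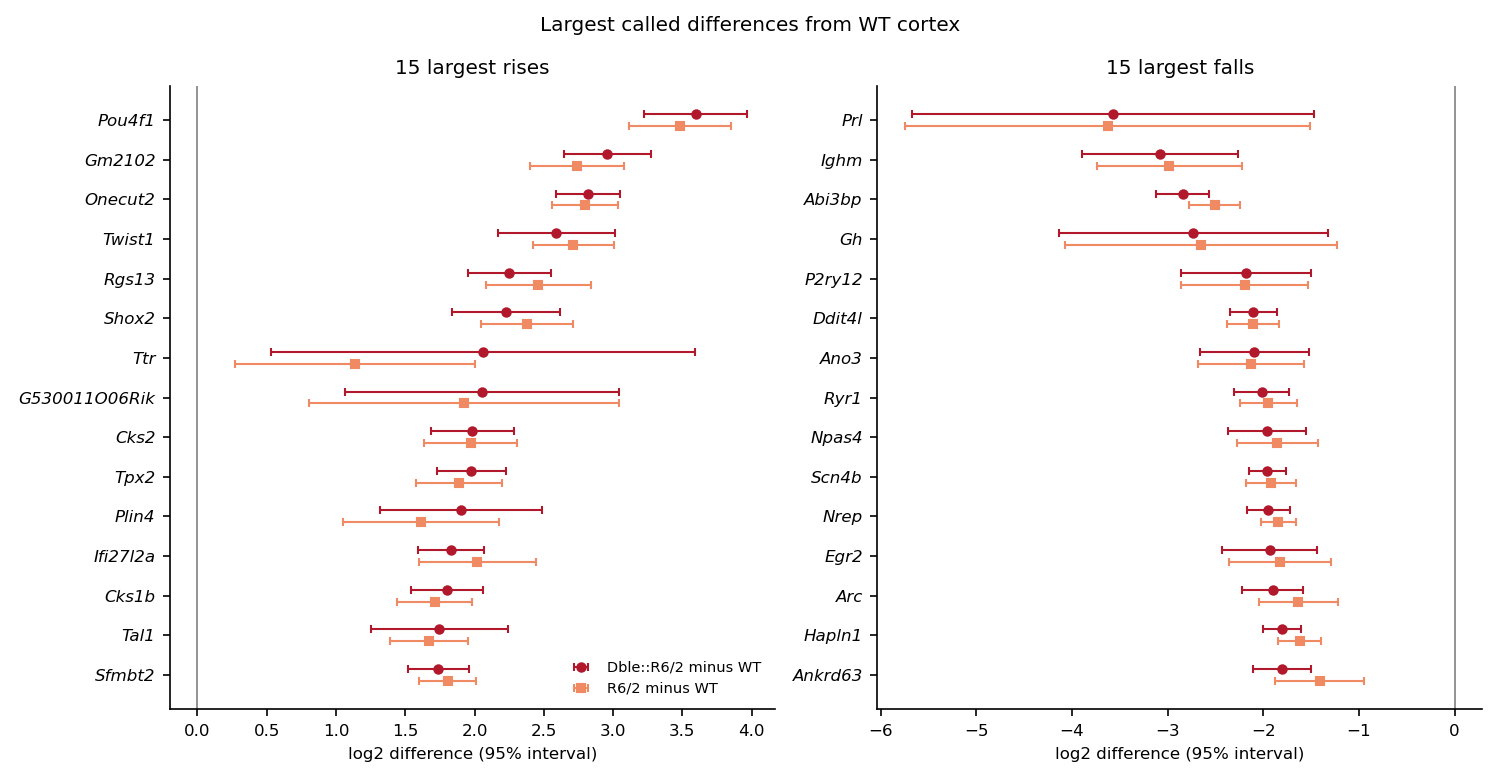
Differences from WT in log2 units with 95% intervals for the 15 genes that rose most and the 15 that fell most in Dble::R6/2 (circles), with R6/2 minus WT beside each (squares). The genes were chosen by the Dble::R6/2 values, and both differences use the same WT mice. Intervals are widest for Prl, Gh and Ttr.

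Pou4f1 is shown with its promoter because it had the largest rise. The window of 250 bases before and 50 after its start, on the minus strand at chr14:104467950-104468249 (GRCm38.p6, RefSeq), follows with each CG in capitals.
Pou4f1: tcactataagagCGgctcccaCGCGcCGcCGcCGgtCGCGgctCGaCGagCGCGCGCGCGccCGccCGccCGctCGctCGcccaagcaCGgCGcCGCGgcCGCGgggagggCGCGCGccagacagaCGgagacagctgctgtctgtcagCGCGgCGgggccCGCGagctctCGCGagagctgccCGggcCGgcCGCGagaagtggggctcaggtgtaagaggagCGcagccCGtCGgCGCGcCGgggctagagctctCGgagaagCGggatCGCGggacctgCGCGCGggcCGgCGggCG
It held 57 CG dinucleotides, and the median over 32851 RefSeq promoter windows was 7, with 94.6% holding at least 1. Over the 61 genes at least 2-fold higher that had a window, the median count was 18, beside 15 for 120 genes at least 2-fold lower and 17 for 14452 genes on the arrays.

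The strongest falls were of another kind. Abi3bp, an extracellular matrix protein, read 3.09, 3.33 and 3.83 in Dble::R6/2, against 5.79, 6.17 and 6.92 in WT (difference -2.84 ± 0.13, adjusted p = 2.88e-11). Ryr1, a ryanodine receptor that releases stored calcium, read 4.14, 4.30 and 4.80 in Dble::R6/2, against 5.74, 6.29 and 6.92 in WT (-2.02 ± 0.14). Scn4b, a sodium channel subunit also prominent in striatum, read 7.04, 7.37 and 7.61 in Dble::R6/2, against 9.04, 9.23 and 9.61 in WT (-1.96 ± 0.09). All 3 separated the groups completely, and so did Ddit4l, an inhibitor of mTOR signalling (-2.10), Nrep (-1.95), Hapln1, a link protein of perineuronal nets (-1.81), and Ankrd63 (-1.81). The immunoglobulin heavy chain Ighm (-3.08 ± 0.39), the anoctamin Ano3 (-2.09 ± 0.27) and the microglial receptor P2ry12 (-2.18 ± 0.33) fell with 2 double mutants each inside the WT range. Ano3 and P2ry12 also read lower in Hdac4HET, which lacks the transgene. Ano3 lay between 4.34 and 6.37 there and between 5.15 and 7.48 in WT. P2ry12 lay between 6.45 and 7.95 in Hdac4HET and between 6.77 and 8.81 in WT. The pituitary hormone genes Prl (-3.57 ± 1.0) and Gh (-2.73 ± 0.67) completed the 15. Without WT replicates 2, 6 and 7 their differences were -1.19 (adjusted p = 0.0134) and -1.30 (adjusted p = 0.0224).

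Immediate early genes, which neurons switch on with activity, were largely lower. Of 34 measured, 22 fell, 3 rose and 9 did not pass, with a median difference of -0.62. Npas4, an activity-regulated transcription factor, read 5.0, 5.42 and 6.17 in Dble::R6/2, against 6.64, 7.44 and 8.30 in WT (-1.96 ± 0.19, adjusted p = 4.07e-07). Arc, a dendritic regulator of AMPA receptor uptake, read 7.51, 7.66 and 8.30 in Dble::R6/2, against 9.10, 9.68 and 10.30 in WT (-1.90 ± 0.15). The zinc finger factors Egr2 (-1.93) and Klf10 (-1.63) also fell without overlap, as 11 of the 34 did, and Fos (-0.83), Nr4a1 (-0.70), Junb (-0.66) and Egr1 (-0.59) fell less. The exceptions were Maff (0.91), Fosb (0.40) and Jun (0.27), which rose. Bdnf, the neurotrophin that cortical neurons supply to striatum, read 7.17, 7.34 and 7.73 in Dble::R6/2, against 7.67, 7.97 and 8.55 in WT on its brighter probe set (-0.60 ± 0.10, adjusted p = 0.000184), and fell by 0.88 on the other. A single double mutant reached the WT range on each.

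Many activity-regulated promoters carry a cAMP response element, the site bound by CREB. The windows of Npas4 and Egr2, which had the deepest falls among the immediate early genes, and of Sst, a neuropeptide gene described next, are shown with each copy of TGACG, on either strand, in capitals (the full element TGACGTCA is a pair of such copies that overlap on opposite strands). They lie at chr19:4989922-4990221 on the minus strand, chr10:67537619-67537918 on the plus strand, and chr16:23890795-23891094 on the minus strand (GRCm38.p6, RefSeq).
Npas4: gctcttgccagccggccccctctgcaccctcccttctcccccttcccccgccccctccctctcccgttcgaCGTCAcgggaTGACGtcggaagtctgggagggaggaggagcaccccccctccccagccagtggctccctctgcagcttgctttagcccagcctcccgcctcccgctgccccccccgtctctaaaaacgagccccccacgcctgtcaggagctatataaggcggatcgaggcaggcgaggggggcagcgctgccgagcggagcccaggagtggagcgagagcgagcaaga
Egr2: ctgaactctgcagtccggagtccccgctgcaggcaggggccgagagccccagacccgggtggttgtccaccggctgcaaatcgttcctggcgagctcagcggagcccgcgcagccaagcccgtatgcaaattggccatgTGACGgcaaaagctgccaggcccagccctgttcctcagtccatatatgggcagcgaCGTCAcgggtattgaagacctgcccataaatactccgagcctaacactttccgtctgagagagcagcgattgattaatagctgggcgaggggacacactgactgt
Sst: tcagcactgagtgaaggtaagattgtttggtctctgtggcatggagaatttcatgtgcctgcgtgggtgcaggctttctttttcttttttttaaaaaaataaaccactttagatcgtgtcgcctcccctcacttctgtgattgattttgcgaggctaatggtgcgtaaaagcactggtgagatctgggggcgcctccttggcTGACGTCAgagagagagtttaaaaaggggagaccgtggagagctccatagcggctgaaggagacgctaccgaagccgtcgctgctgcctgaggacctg
The Sst window held the full element once, 48 bases before its start, and the Npas4 and Egr2 windows shown held 2 separate short copies each. The windows of the neuropeptide genes Tac2 and Npy, which also fell, are not shown and held 0 copies. Of 5 Egr2 windows, 3 overlapped and shared these 2 copies, and the other 2 held 0. The short form TGACG occurred in 20.8% of all 32851 windows and the full element in 1.79%. Counting a gene once if any of its windows matched, the short form was found in 18 of 25 immediate early genes with a window, in 10 of the 15 of these that fell, in 10 of 16 neuropeptide genes and in 30% of 14452 genes on the arrays. The full element was found in 3 of the 25 and 2 of the 16, and in 2.92% of genes. A match is a description of these letters and not a measured binding site.

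MEF2 factors and their muscle-type targets, which HDAC4 represses in muscle, held no called rise in Dble::R6/2 against WT. Of 18 measured, 7 fell and 0 rose, and 5 fell without the 3 WT arrays high in Prl. Mef2d (-0.18) lost its call there (adjusted p = 0.0742). Actc1 (-0.18, adjusted p = 0.0493) lost its call in 23 of 28 alternatives. The falls included the myosin light chain Myl4 (-1.80 ± 0.12), the cardiac myosin Myh7 (-1.54 ± 0.18), skeletal actin Acta1 (-0.71) and Mef2c itself (-0.44), each with every double mutant below every WT mouse. The muscle genes Ckm (-0.08), Des (-0.06) and Myog (-0.10) did not pass, and the median over the list was -0.08. In Hdac4HET, which lacks the transgene, Myh7 lay higher, between 6.81 and 8.27 against 6.17 to 7.49 in WT. The list median of Hdac4HET relative to WT was 0.00.

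Neuropeptides and receptors of both transmitter systems were reduced. Of 20 neuropeptide genes 14 fell and 2 rose (median -0.51). Sst, which marks a class of interneurons, read 9.33, 9.61 and 9.83 in Dble::R6/2, against 11.07, 11.21 and 11.45 in WT (-1.64 ± 0.07, adjusted p = 1.57e-11). Npy fell by 1.49, Crh by 1.66 and Tac2 by 1.77, all without overlap, and the exceptions were Nts (0.89) and Nucb2 (0.27), which rose, Nucb2 not without the 3 WT arrays high in Prl (adjusted p = 0.149). Of 19 GABAergic genes 11 fell and 1 rose, led by the GABA-synthesising enzyme Gad1 (-0.90), the GABA-A receptor subunits Gabrd (-0.89) and Gabra2 (-0.82) and Reln (-0.88), while the vesicular transporter Slc32a1 (-0.10, adjusted p = 0.217) did not pass. Without the 3 WT arrays high in Prl, 10 GABAergic genes fell and 0 rose. In bulk cortex, fewer cells of a type and less RNA per cell cannot be told apart. Of 29 genes of the glutamatergic synapse 18 fell and 0 rose, with the AMPA receptor auxiliary subunit Cacng3 at -1.58, the metabotropic receptors Grm2 (-0.88) and Grm3 (-0.73), and the AMPA receptor subunit Gria3 (-0.85). The AMPA receptor subunits Gria1 (0.22) and Gria2 (-0.15) and the NMDA receptor subunit Grin2b (-0.01) did not pass.

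Ion channels and the release machinery moved in the same direction with named exceptions. Of 39 potassium channel genes 23 fell and 3 rose, among them the Kv4 partner Kcnip2 (-1.18), Kcnip1 (-0.86), Kcnv1 (-0.93) and Kcnh5 (-0.82), and Kcna5 (0.69), which rose. Of 24 genes for calcium channels, stores and pumps 12 fell and 1 rose. Without the 3 WT arrays high in Prl, 9 of them fell and 0 rose. Itpka, an inositol trisphosphate kinase, stood at -1.48 and the plasma membrane pump Atp2b2 at -0.94 beside Ryr1. In the sodium channel family the falls of Scn4b and Scn2b (-0.75) stood beside rises of Scn3a, an isoform abundant in the developing brain (0.73 ± 0.10), and Scn3b (0.53 ± 0.09), and Scn1a (0.12) and Scn2a (0.06) did not pass. Of 28 genes for vesicle release 16 fell and 3 rose. Vamp1 (-1.16), Rims1 (-0.94), Rph3a (-0.89) and Unc13a (-0.85) fell furthest, and Sv2a (0.33), Syt4 (0.18) and Syp (0.17) rose. Only Sv2a of these kept its call without the 3 WT arrays high in Prl, and both Syt4 and Syp lost it also without WT replicate 1, Syt4 without any 1 of WT replicates 2 and 3 or Dble::R6/2 replicates 1, 3 and 4, and Syp without any 1 of WT replicates 4, 6 and 7. Of 19 RGS genes 13 fell, led by Rgs11 (-1.62) and Rgs4 (-1.61), and Rgs13 alone rose.

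Layer identity genes and genes best known from striatal projection neurons were also lower. Of 20 measured layer genes 15 fell and 0 rose (median -0.47), with the upper-layer genes Lamp5 (-1.66 ± 0.07) and Cux2 (-1.18 ± 0.07), Cplx3, a complexin of subplate neurons (-1.60), and Rspo1 (-1.29). The deep-layer genes Bcl11b (-0.05, adjusted p = 0.644) and Tle4 (0.13, adjusted p = 0.306) did not pass. Of 21 genes of striatal-type signalling 12 fell and 1 rose, among them Ppp1r1b, which encodes DARPP-32 (-1.39 ± 0.09), the phosphoprotein genes Arpp19 (-1.73) and Arpp21 (-0.92) and the receptor Gpr6 (-1.21). Of 9 genes for cortical neuron identity 6 fell and 1 rose (median -0.42), with Tbr1 at -0.61, Snap25 at -0.48, Rbfox3 at -0.44 and Slc17a7 at -0.29, and Neurod2 (0.28) rose, though not without the 3 WT arrays high in Prl (adjusted p = 0.0615).

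**Figure D3:**
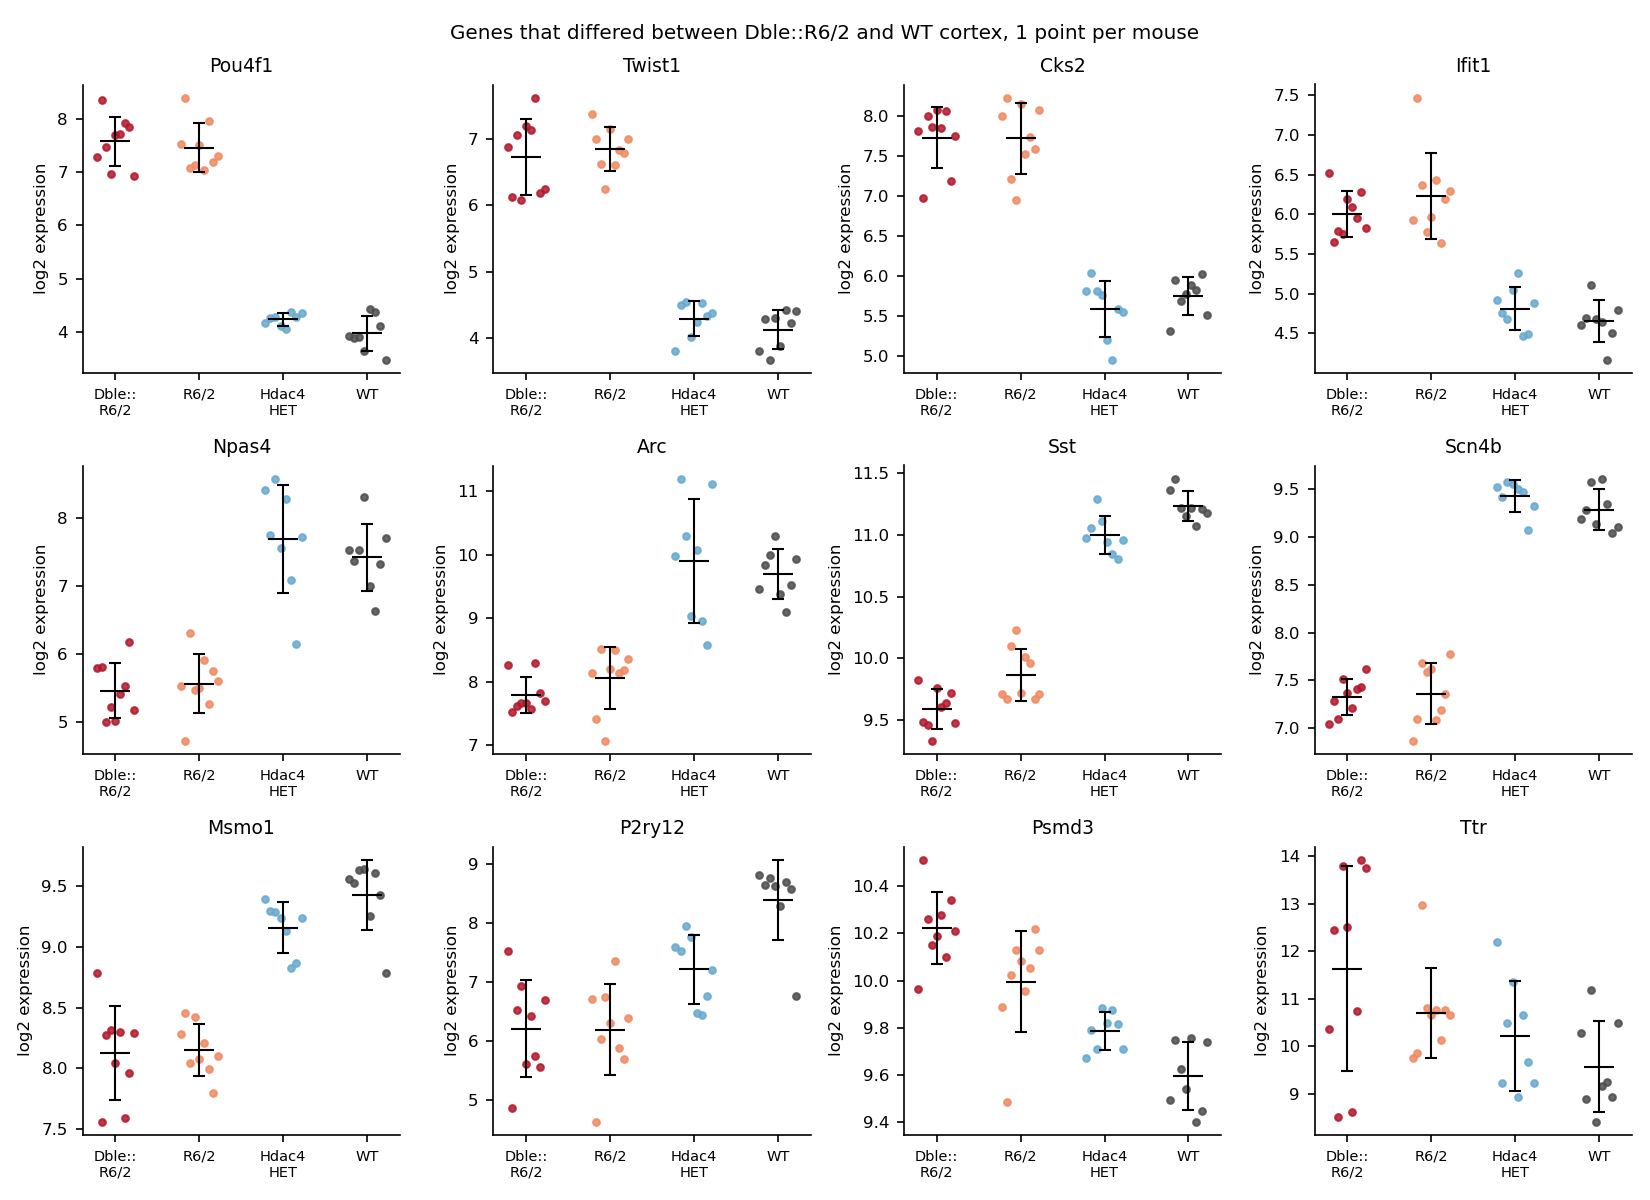
Log2 expression of 12 genes in each mouse of the 4 genotypes (1 point per mouse, bar and whiskers for mean and SD, axes not starting at 0). Dble::R6/2 and WT mice did not overlap for the genes shown other than P2ry12 and Ttr, and R6/2 mice overlapped with Dble::R6/2 mice in every panel.

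Cholesterol synthesis was the list with the highest share of falls. Of 20 measured genes 17 fell and 0 rose (median -0.55), from the regulator Srebf2 (-0.64) through Hmgcs1 (-0.51) and Idi1 (-1.17 ± 0.10) to the late-step enzymes Nsdhl (-0.97) and Msmo1. Msmo1, a sterol methyl oxidase, read 7.56, 8.27 and 8.78 in Dble::R6/2, against 8.79, 9.55 and 9.64 in WT (-1.31 ± 0.15, adjusted p = 2.89e-06). The groups did not overlap, and they did not in 10 of the 20. Pmvk (0.02), Hsd17b7 (0.06) and Lss (0.09) did not pass. Of 19 circadian clock genes 12 fell and 2 rose, including the output factor Dbp (-1.47 ± 0.09), Ciart (-1.36), Bhlhe40 (-1.10) and Per3 (-0.95), and Cry1 (0.80) rose. The core activators Clock (0.09) and Arntl (-0.06) did not pass, and the time of day of dissection is not given in the sources used here, which name a light and dark cycle only.

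Proteasome genes were higher by small amounts. Of 30 proteasome subunit genes 21 were higher and 0 lower (median 0.27), led by the lid subunits Psmd3 (0.63 ± 0.07) and Psmd11 (0.54 ± 0.07). Psmd3 read 9.97, 10.21 and 10.51 in Dble::R6/2, against 9.40, 9.58 and 9.76 in WT, without overlap. In 11 of the 30 the groups did not overlap. Chaperones were mixed, with 12 of 34 higher and 5 lower. The chaperonin subunits Cct3 (0.70 ± 0.08) and Cct4 (0.62) and the small heat shock protein Hspb8 (0.61) rose, and the inducible Hspa1a (-0.36) fell. Without the 3 WT arrays high in Prl 3 chaperone genes were lower. Of 46 oxidative phosphorylation genes 15 were higher and 2 lower, a share above that of all genes, but their median of 0.04 was near that of all genes. Without the 3 WT arrays high in Prl, 12 of them were higher and 0 lower. Linker histone H1f2 rose by 0.78.

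Interferon-inducible genes were raised in cortex of the double mutants. Of 26 measured, 14 were higher and 3 lower (median 0.27). Ifi27l2a read 5.58, 5.96 and 6.23 in Dble::R6/2, against 3.84, 4.01 and 4.74 in WT (1.83 ± 0.11, adjusted p = 1.22e-09), and Ifit1 (1.35 ± 0.12) separated the groups as well. Usp18 (0.99) and Oasl2 (0.86) also rose. The class I antigen presentation genes did not follow, since B2m fell (-0.78) and H2-K1 (-0.53, adjusted p = 0.186) and H2-D1 (-0.32, adjusted p = 0.33) did not pass. Genes that respond to glucocorticoids or fasting were higher in 9 of 22 and lower in 3 (6 and 2 without the 3 WT arrays high in Prl), with the chaperone partner of the glucocorticoid receptor Fkbp5 at 0.87, Cdkn1a at 0.95, Sult1a1 at 0.98 and Plin4 at 1.90, while Sgk1 (0.19) and Tsc22d3 (-0.28) did not pass. Of 17 p53 and growth arrest genes 5 rose and 4 fell, and of 24 genes of the integrated stress response 7 rose and 2 fell, which became 3 and 4 rises without the 3 WT arrays high in Prl. The stress factors Atf3 (0.03) and Ddit3 (-0.06) did not pass.

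**Figure D4:**
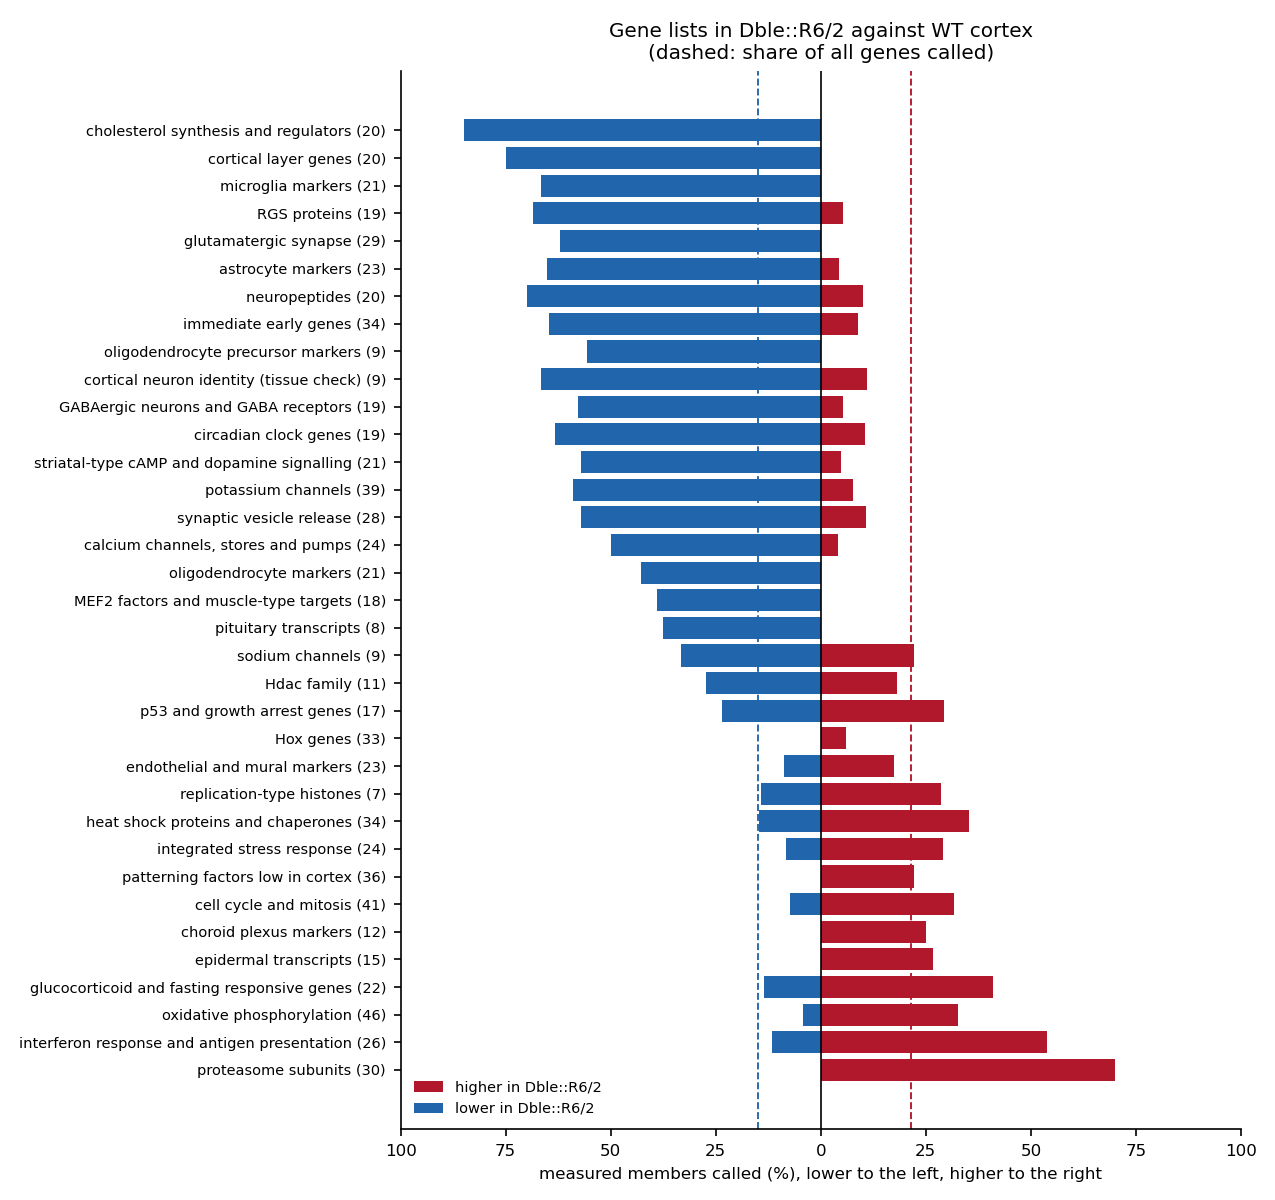
Share of the measured members of each gene list (number in brackets) that were called higher (right) or lower (left) in Dble::R6/2 than in WT, with dashed lines at the shares of all genes, 21.5% and 14.9%. Cholesterol synthesis had the highest share lower and proteasome subunits the highest share higher among the lists drawn.

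Markers of glial cells were also lower. Their part in the falls of other lists was not tested. Of 21 microglial markers 14 fell and 0 rose (median -0.42), with P2ry12, Gpr34 (-1.37 ± 0.19), the purinergic receptor P2ry13 (-0.87) and the fractalkine receptor Cx3cr1 (-0.72), while Csf1r (-0.18) and Tmem119 (-0.21) did not pass. P2ry12 read 4.87, 6.43 and 7.52 in Dble::R6/2, against 6.77, 8.63 and 8.81 in WT. WT replicate 8 held the lowest WT value and lay inside the range of the double mutants. Of 23 astrocyte markers 15 fell and 1 rose (median -0.38), with the phosphatase Plpp3 (-1.15), the bicarbonate cotransporter Slc4a4 (-1.10), the neurotensin receptor Ntsr2 (-0.78) and the water channel Aqp4 (-0.79) lower, and Gfap, the filament of reactive astrocytes, 0.57 higher (adjusted p = 0.0379). The rise of Gfap did not hold, since its adjusted p was 0.0507 after quantile normalization, 0.0831 with sex from Xist and 0.0839 without the 3 WT arrays high in Prl, and it lost its call without any 1 of WT replicates 3, 4 and 6 or Dble::R6/2 replicates 2, 4, 5, 7, 8 and 9. Of 21 oligodendrocyte markers 9 fell, led by Ugt8a (-1.02) and Pllp (-0.81), and without the 3 WT arrays high in Prl 4 did. Myelin genes Mag (-0.17), Mog (-0.22) and Mobp (-0.07) did not pass. The mean of these markers was lowest, at -0.60 relative to WT, in WT replicate 4. Of 9 markers of oligodendrocyte precursors 5 fell and 0 rose. Of 23 endothelial and mural markers 4 rose, Cldn5 (0.61) and Vwf (0.65) among them, and 2 fell. Cldn5 was also higher in Hdac4HET, at 8.55 to 9.34 against 8.15 to 8.74 in WT.

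Choroid plexus transcripts differed between double mutants. Ttr, which the choroid plexus secretes, read 8.52, 12.46 and 13.93 in Dble::R6/2, against 8.41, 9.20 and 11.19 in WT (2.06 ± 0.73, adjusted p = 0.0383), and the groups overlapped. Of 12 measured markers, 3 were called higher (Ttr, Sostdc1 and Kcne2) and 0 lower. The mean over the 12, relative to WT, was 1.46, 2.21 and 1.55 in Dble::R6/2 replicates 4, 8 and 9, between -0.18 and 0.58 in the other 6, and between -0.26 and 0.22 in WT. None of the 12 was called without the 3 WT arrays high in Prl, where Ttr had an adjusted p of 0.193. Ttr also lost its call without any 1 of WT replicates 2, 4, 5, 6 and 7 or Dble::R6/2 replicates 2, 4, 5, 8 and 9, and Kcne2 without any 1 WT array or any 1 of Dble::R6/2 replicates 4, 8 and 9. The part of this tissue in other results was not tested. Of 15 epidermal transcripts 4 rose, Lor (0.70) most, while Krt5 (0.00) and Krt14 (-0.12) did not pass.

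Beyond Hdac4, deacetylase genes changed little. On their brightest probe sets Hdac1 (0.37, adjusted p = 0.00551) and Hdac2 (0.27, adjusted p = 0.00129) rose, and Hdac11 (-0.39, adjusted p = 3.35e-05) and Hdac5 (-0.27, adjusted p = 0.00496) fell. Hdac3, Hdac6, Hdac7, Hdac8, Hdac9 and Hdac10 lay between -0.15 and 0.05 on these probe sets and did not pass. The second Hdac11 probe set overlapped, at 8.22 to 8.65 in Dble::R6/2 and 8.27 to 8.65 in WT. A second Hdac7 probe set was called lower, at 5.27 to 5.93 in Dble::R6/2 and 5.49 to 6.18 in WT. That Hdac7 call was lost without the WT arrays high in Prl and in several other alternatives. Leaving out WT replicates 2, 6 and 7 took Hdac5 to an adjusted p of 0.0594. The endogenous huntingtin gene Htt was 0.39 ± 0.09 higher where its signal was brightest (adjusted p = 0.00286) and 0.20 higher on the second (adjusted p = 0.0575 without WT replicates 2, 6 and 7), with adjusted p of 0.236 and 0.998 on the remaining 2. Of the genes commonly used as qPCR references, Canx fell by 0.26 (adjusted p = 0.0329) and Rpl13a rose by 0.20 (adjusted p = 0.00772), and Canx lost its call without any 1 of WT replicates 2, 3, 4, 6 and 7 or Dble::R6/2 replicates 2, 7 and 8. Atp5b (-0.03) and Ywhaz (0.03) did not pass.

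The double mutants were set against R6/2 mice to see whether the loss of an Hdac4 allele moved any of these genes. At the same threshold 3 of 45037 probe sets (0.00666%) were called between Dble::R6/2 and R6/2, 2 of Prm1 (higher, 2.01 and 1.86) and the second brightest of Hdac4 (-0.61), and 2559 (5.68%) had an unadjusted p under 0.05. The 95% interval of this difference, not adjusted for the number of probe sets, reached 0.17 to either side in the median gene. Calls were adjusted over all 45037 probe sets, so that changes of this size, and larger ones, could go undetected. No other named gene was called. Relative to R6/2, Pou4f1 differed by 0.11 (95% interval -0.30 to 0.52), Scn4b by -0.03 (-0.28 to 0.21), Npas4 by -0.10 (-0.48 to 0.27) and Bdnf by -0.10 (-0.26 to 0.07) on its brighter probe set. These intervals hold 0, and none reaches the size of the difference from WT. Among genes named for their difference from WT, which favours values further from WT in the double mutants, the differences from R6/2 were -0.74 for Gpr6 (-1.29 to -0.20), -0.43 for Tac2 (-0.75 to -0.12), -0.34 for Klf10 (-0.60 to -0.08) and -0.28 for Sst (-0.46 to -0.09). On the other side lay the interferon-inducible Rtp4 (-0.23, -0.56 to 0.10), Ifit1 (-0.22, -0.61 to 0.17) and the cholesterol synthesis enzyme Fdps (0.22, -0.15 to 0.60), nearer to WT than R6/2. These 7 were picked after their values were seen, and none passed after adjustment over all probe sets. Their limma adjusted p lay between 0.789 and 0.931. For Gpr6, R6/2 replicates 3, 5 and 9 read 5.99, 5.09 and 5.35. The other R6/2 arrays lay between 3.78 and 4.31, and Dble::R6/2 between 3.24 and 4.36. Among R6/2 arrays, means of the striatal-type list relative to WT were highest in replicates 3, 5 and 9 (0.08, -0.15 and -0.14). The Gpr6 difference therefore rested largely on those R6/2 arrays.

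List medians relative to WT are given side by side, with the same WT mice in each. For immediate early genes the median was -0.62 in Dble::R6/2 and -0.62 in R6/2, and for neuropeptides -0.51 in Dble::R6/2 and -0.46 in R6/2. Cholesterol synthesis had a median of -0.55 in Dble::R6/2 and -0.62 in R6/2, and layer genes had -0.47 in Dble::R6/2 and -0.46 in R6/2. Microglial markers stood at -0.42 in Dble::R6/2 and -0.41 in R6/2. Of the lists that rose, proteasome subunits had a median of 0.27 in Dble::R6/2 and 0.23 in R6/2, and interferon-inducible genes 0.27 in Dble::R6/2 and 0.24 in R6/2. In other lists the medians lay further apart. Choroid plexus markers had a median of 0.62 in Dble::R6/2 and 0.18 in R6/2, vesicle release genes -0.32 in Dble::R6/2 and -0.20 in R6/2, and oligodendrocyte precursor markers -0.27 in Dble::R6/2 and -0.15 in R6/2. Neuronal identity genes had -0.42 in Dble::R6/2 and -0.31 in R6/2, and endothelial and mural markers -0.05 in Dble::R6/2 and 0.08 in R6/2. Whether any of these pairs differed was tested gene by gene only. Taken member by member, the median difference from R6/2 was 0.45 for choroid plexus markers and -0.10 for neuronal identity genes. It was -0.05 for vesicle release genes, -0.06 for oligodendrocyte precursor markers and -0.03 for endothelial and mural markers. Among the earlier lists it was -0.10 for neuropeptides, 0.07 for proteasome subunits, -0.07 for layer and interferon-inducible genes, and smaller in size in the others. In Hdac4HET against WT, where 1760 probe sets (3.91%) were called, the medians were 0.27 for immediate early genes, 0.01 for neuropeptides, 0.00 for cholesterol synthesis and -0.01 for proteasome subunits. For endothelial and mural markers the Hdac4HET median was 0.13, further from WT than in Dble::R6/2 or R6/2. No list member was called between Dble::R6/2 and R6/2 on its brightest probe set (0 of 18193 genes, 0%).

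Double mutants also varied among themselves. Replicate 1 lay nearest to WT in several lists. Its mean relative to WT was -0.30 for immediate early genes, where the other 8 lay between -0.66 and -0.47, and -0.22 for microglial markers, where they lay between -0.65 and -0.42. For cell cycle genes it was 0.10, against 0.21 to 0.36 in the others, and for glucocorticoid and fasting responsive genes it was -0.18, against 0.18 to 0.54. Neuropeptides, at -0.70 in replicate 1 and -0.86 to -0.52 in the others, did not set it apart. Without replicate 1, 14254 probe sets were called against WT. The effect of the genotype was also compared between the sexes. In a fit with sex, 0 of 45037 probe sets had a genotype by sex interaction at an adjusted p of 0.05 (limma, 1529 at an unadjusted p under 0.05), and 0 did with sex read from Xist (1607).

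**Figure D5:**
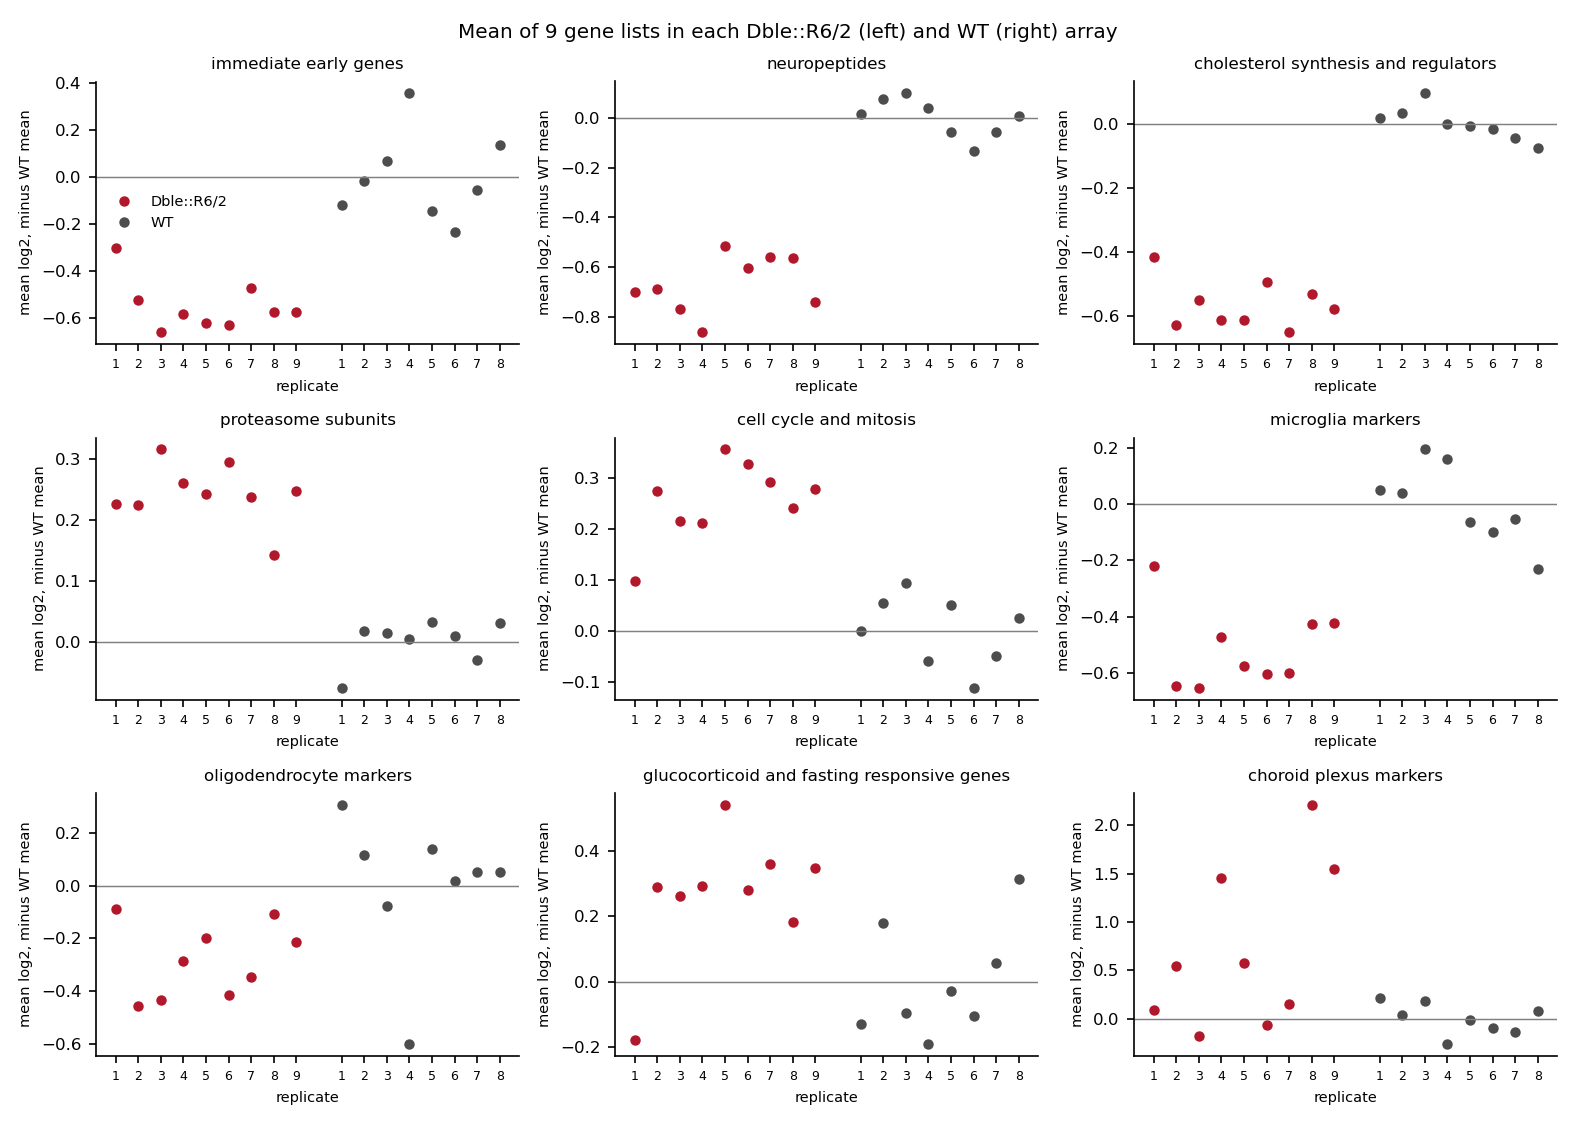
Mean log2 expression of 9 gene lists relative to the WT mean in each Dble::R6/2 array (left in each panel) and each WT array (right), by replicate number. Every Dble::R6/2 mean lay below every WT mean for immediate early genes, neuropeptides and cholesterol synthesis and above for proteasome subunits, while choroid plexus markers were high in replicates 4, 8 and 9.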

How the data were processed

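Values were log2 expression per probe set of Affymetrix whole-genome mouse arrays, as deposited by the authors, who checked array quality with RACE. The normalization behind the deposited log2 values is not given in the sources used here. Values ran between 2.04 and 14.1. Of 45037 probe sets, 34945 had a single gene symbol, 932 several and 9160 none. Symbols were updated to RefSeq (GRCm38.p6) for 34741. Dble::R6/2 and WT arrays were compared in limma 3.58.1 (R 4.3.3, lmFit and eBayes, no covariate) with Benjamini-Hochberg adjustment over all 45037 probe sets, 2-sided, and probe sets were called at an adjusted p of 0.05 or less. The fit was tested on simulated data. Each gene was represented by the probe set brightest on average across the 34 arrays. Named genes were the 15 largest called rises and falls, up to 4 called members of each list with the largest differences, all probe sets of Hdac genes, Htt, Bdnf and Prm1, and the genes called between Dble::R6/2 and R6/2. Other list members named here were picked after their values were seen. The genotypes compared and the gene lists were chosen with earlier results of these data known. Lists were described by counts and medians, with no set test. Alternatives were quantile normalization, median centring, the brighter probe sets only, eBayes with trend, array weights, sex from labels or Xist, the replicate number as a block, a fit of all 4 genotypes, the methods' t-test, and leaving out each array. Leaving out arrays high in Prl together with sex from Xist was chosen after seeing the data. Promoter windows of 300 bases came from RefSeq.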

Additional observations from a re-analysis of the deposited data

Results flagged for a closer look

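In 276 groups of a probe set and a genotype, over the genes named above, 27 held a highest or lowest mouse that stood apart from the others of its genotype by Dixon's criterion, of which chance gives about 1 in 20. Dble::R6/2 replicate 1 stood apart for Plin4 (6.2, lowest), Mcm7 (8.28, lowest), Hdac5 (9.34, highest), Pllp (8.42, highest), Unc13a (9.07, highest) and Hapln1 (5.65, highest). Dble::R6/2 replicate 2 was lowest for Gabra2 (6.92), Gria3 (9.63), Bhlhe40 (8.67) and Rgs4 (8.82). Single values were lowest for Grm3 in replicate 6 (9.5), Hdac3 in replicate 7 (8.97) and Gad1 in replicate 8 (10.7) of Dble::R6/2. In WT, replicate 8 stood apart for Hoxc6 (5.04, highest), Rpl13a (13.1, highest), Slc4a4 (9.43, lowest), Msmo1 (8.79, lowest), Cacng3 (7.54, lowest) and P2ry12 (6.77, lowest). WT replicate 4 stood apart for Pllp (8.15, lowest), the dimmer Bdnf probe set (8.81, highest), Cplx3 (6.72, lowest) and Ighm (6.12, lowest). The remaining WT values were Gm2102 in replicate 6 (3.96, lowest), Ifi27l2a in replicate 3 (4.74, highest), Hdac8 in replicate 1 (5.27, lowest) and Gria3 in replicate 5 (10.8, lowest). All are log2 expression values, and no explanation was tested.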

How the results depend on the processing

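The count of 13750 probe sets called between Dble::R6/2 and WT stayed within 1.5 times under every alternative, between 9516 (sex from Xist, without the 3 WT arrays high in Prl) and 14652 (array weights), and between 12594 and 14254 with each array left out. The count of 3 between Dble::R6/2 and R6/2 was 1 over the brighter probe sets only, 6 with array weights and 7 with all 4 genotypes in a single fit, and 3 to 4 with each array left out. Of 162 called values among the named genes, 14 lost their call without the arrays high in Prl, Canx, Hdac5 and a second probe set each of Htt and Hdac2 among them, 0 to 5 under each other full-array alternative and 1 to 6 with an array left out, and none changed direction. Same-numbered arrays of Dble::R6/2 and WT did not in general deviate together (8 pairs, correlation between -0.27 and 0.37, 3 over 0.1). Of the WT arrays, 2 were closest to the double mutant of their own number. Pairing by number was therefore not seen, but these correlations cannot exclude it. With the replicate number as a block 13272 probe sets were called. The cause of these shifts was not tested.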
